A study of Mus musculus with 144 samples.

Results

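The wells compared here were retinal cells collected 2 days after crush of the optic nerve and divided by their Ccl12 transcript. Of 36 day 2 wells, among 144 wells in the whole series, 19 were kept: 14 with Ccl12 at 50 RPM or more and 5 below. The classes were chosen by a measured value. Wells were kept if they held at least 50000 reads, and a well was left out if S100a8 and S100a9, transcripts abundant in neutrophils, were both at 1000 RPM or more. RPM is a gene's number of reads per 1000000 reads assigned to genes in that well and does not correct for gene length.

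All wells came from Iba1-EGFP mice on the C57BL/6 background, aged 20 to 22 months, and each was filled by sorting green fluorescent retinal cells so that 1 cell lay in each well of 3 plates. The Iba1 promoter drives the fluorescent protein in microglia and also in other cells of the monocyte and macrophage lineage, so the sort selects for the transgene and not for microglia alone. The groups used are uncrushed retina, day 2 and day 4 after crush, all with the transgene and of the same age range. No label names an animal, so the wells of a group count as 1 sample, no test is possible, and differences are given as descriptions. The titles of 18 wells of plate 1 give day 4 but their treatment tag gives day 2. They were taken as day 4, and 10 of them are among the kept wells of that group.

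Ccl12, also called MCP-5, is a small secreted chemokine of the mouse that attracts monocytes through the receptor CCR2. Microglia, the resident macrophages of the retina and brain, can release chemokines of this family after injury or exposure to microbial products. Secreted proteins of this kind are folded in the endoplasmic reticulum (ER) with the help of chaperones. Chemokine genes of microglia are known to respond to inflammatory and interferon signals.

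Ccl12 (ENSMUSG00000035352, GRCm38 chromosome 11, 82101845 to 82103400, plus strand) fell into 2 ranges of level in the kept day 2 wells. In the 14 wells it ran from 73.8 to 18065 RPM with a median of 2495 RPM. The 5 other wells held 5.38, 12.2, 3.84, 11.5 and 9.2 RPM. Here and below these are given in the order well D3 and E4 of plate 1, E2 and E5 of plate 2 and E4 of plate 3. No well lay between 12.2 and 73.8 RPM, the values on either side of the threshold, and the 2 lowest of the 14 held 73.8 and 97.1 RPM, resting on 7 and 24 reads. Well D3 of plate 1, without Ccl12 by the rule, held 14 reads of it, more than the lowest of the Ccl12 wells.

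The few reads of the 5 wells were at the level of wells left out as neutrophil-like. The 6 such wells of day 2 had 0 to 10.5 RPM of Ccl12, with a median of 4.84, and at least 9119 RPM of S100a8 and 6150 RPM of S100a9. The kept wells reached at most 94.9 RPM of S100a8 and 84.4 RPM of S100a9. The other 11 day 2 wells held at most 5951 reads, and the lowest kept well held 94800. The 2 classes were unequal on the plates, with 6 and 2 wells on plate 1, 2 and 2 on plate 2 and 6 and 1 on plate 3.

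The share of kept wells with Ccl12 was 14 of 19 at day 2 (73.7%, exact Clopper-Pearson 95% interval 48.8 to 90.9). It was 9 of 38 in uncrushed retina (23.7%, 11.4 to 40.2) and 19 of 22 at day 4 (86.4%, 65.1 to 97.1), or 11 of 12 (91.7%, 61.5 to 99.8) without plate 1. The day 2 and day 4 intervals overlapped, and neither overlapped the uncrushed one. This is no test between groups, since the wells of a group count as 1 sample. Intervals cover counting error of wells only, since neither animals nor molecules can be told apart. The shares leave out the shallow wells, where 1 read is worth more than 50 RPM: at day 2, 10 of 11 passed that level on a median of 4 reads, as did 14 of 15 uncrushed wells and 30 of 30 day 4 wells on a median of 3. In uncrushed retina 6 of the 9 wells lay on plate 3, and 1 well of plate 2 at 49.9 RPM stood just under the threshold.

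**Figure D1:**
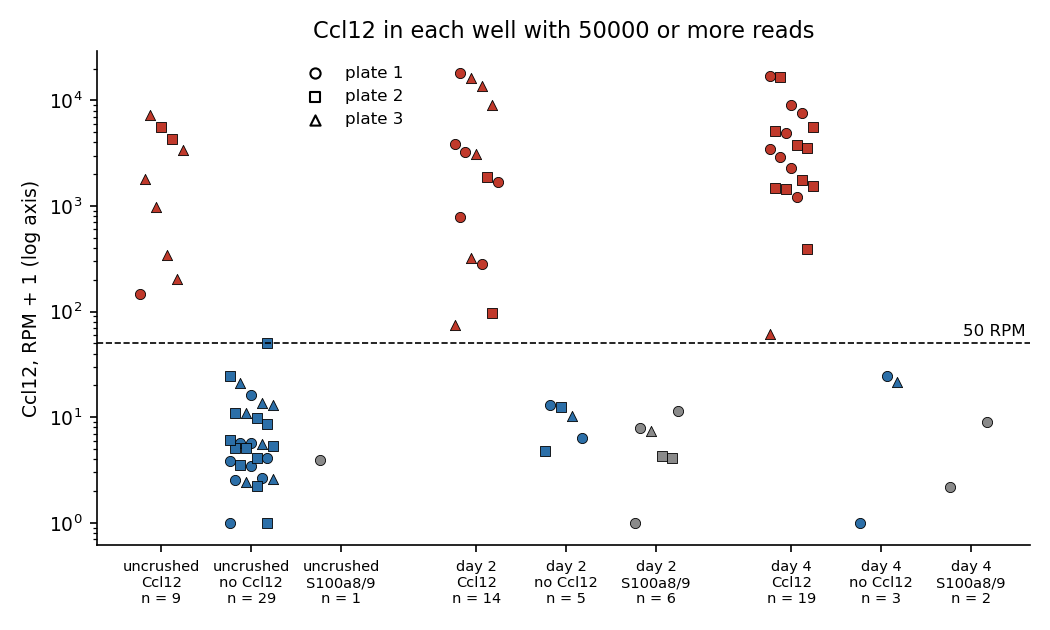
Ccl12 in each well with at least 50000 reads, as RPM + 1 on a log axis, by group and class; marker shapes are plates and the dashed line is 50 RPM. At day 2 the 14 red wells spread from 73.8 to 18065 RPM, and the 5 blue wells sit with the 6 grey wells at 12.2 RPM or less.

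Both classes carried markers of microglia, but not each marker in each well. Of 12 defining genes, among them the purinergic receptor P2ry12, the fractalkine receptor Cx3cr1, Tmem119 and the complement genes C1qa to C1qc, the Ccl12 wells held 5 to 12 at 10 or more reads (median 10). The 5 wells without held 6 to 9 (median 9). Tmem119 reached 10 reads in 9 of 14 Ccl12 wells and 1 of 5 without, Cx3cr1 in 11 and 2 and P2ry12 in 9 and 4. C1qa and C1qb did so in 14 and 5. The summed level of the list was 1756 to 59241 RPM in the Ccl12 wells and 11708 to 74388 RPM in the others, so the classes overlapped. Macrophage markers such as Mrc1 and Pf4 reached 10 reads in no well of either class, and their sum stayed at or below 3.07 RPM.

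Markers of other cells were uneven. Of 12 monocyte markers only Lyz1, a lysozyme gene, passed the filter on low values, and 0 to 2 of the 12 reached 10 reads in a Ccl12 well and 0 to 1 in the others. Their sum was 0 to 639 RPM with Ccl12 (median 145) and 0.607 to 325 RPM without (median 3.83). Ighm, an immunoglobulin heavy chain and the single B cell marker measured of 5, ran from 0 to 3527 RPM with Ccl12 (median 135) and from 0 to 3.83 RPM without. Neutrophil markers summed to 0 to 826 RPM with Ccl12 and 1.53 to 126 RPM without. Of 6 cone markers, Pde6h and Gngt2 passed the filter, and the list summed to 89.7 to 2689 RPM with Ccl12 (median 462) and 1.53 to 923 RPM without (median 564), with a marker at 10 reads in 13 of 14 and 4 of 5 wells. Siglech, which the dendritic list shares with the microglial one, was the single measured gene of the former, and that list reached 4223 RPM with Ccl12 and 4371 RPM without. Mueller glia markers reached 727 RPM with Ccl12, and 2496 RPM in 1 well without. Their part in the results was not tested.

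The Ccl12 wells held more genes. They had 2085 to 9207 genes with a read (median 5633), against 2419 to 5125 (median 2800) in the others, while reads ran from 94800 to 8065036 and from 261281 to 2602967. With each well thinned to 50000 reads, the Ccl12 wells held 798 to 4215 genes (median 2694) and the wells without 1073 to 1550 (median 1165). Only 4 of the 14 lay within or below the range of the 5, and they included the 2 with the least Ccl12. This difference goes with every comparison below, and its part in them was not tested. The main ones are also given for the 6 Ccl12 wells with no more than 5125 genes before thinning, the highest number in a well without. This choice was made after the data were seen. It does not match the wells at equal depth, where only 4 of the 14 lay within or below the range of the 5. These 6 are called wells of like gene number below.

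**Figure D2:**
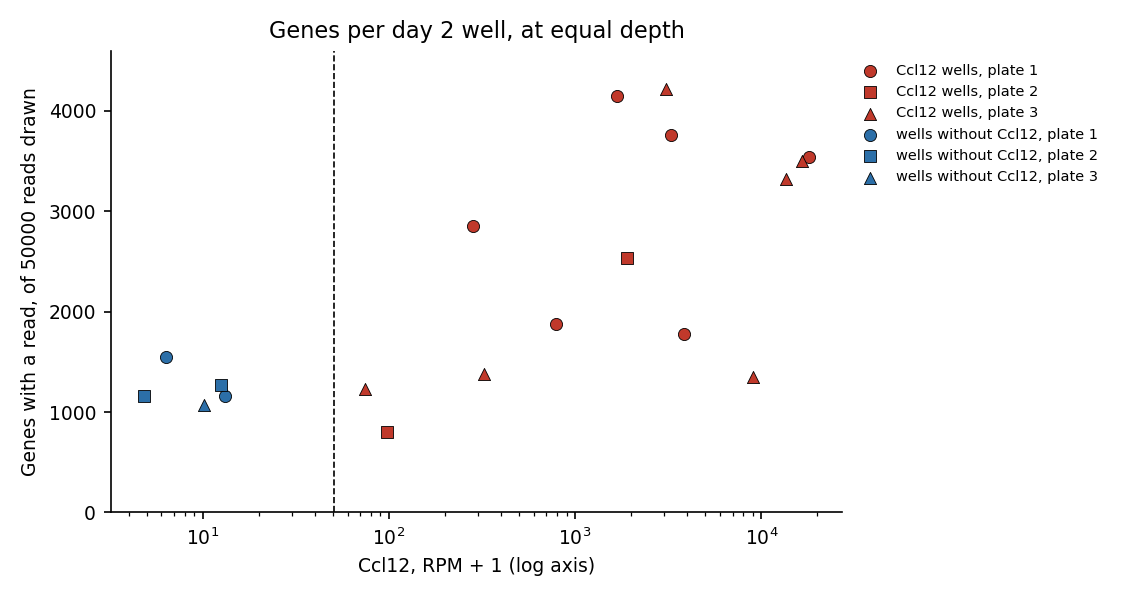
Genes with a read after each kept day 2 well was thinned to 50000 reads, against Ccl12 as RPM + 1 on a log axis; colours are classes, shapes are plates and the dashed line is 50 RPM. The wells without Ccl12 hold 1073 to 1550 genes and the Ccl12 wells 798 to 4215.

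Differences between the classes are means of log2(RPM + 10) over the Ccl12 wells minus the same over the wells without, for genes at 10 RPM or more in at least 3 of the 19 wells. The added 10 RPM makes differences of low genes too small. A gene can pass this filter through Ccl12 wells alone, and 14 of the 19 wells were of that class. If it lay at or near 0 RPM in the wells without, it could only be higher. This goes for the counts of list members below as well. Of 5227 genes, 1829 (35%) were higher in the Ccl12 wells by at least 1, a 2-fold difference, and 231 (4.42%) were lower by as much. With 1 of the 5 wells without left out, 308 to 386 were lower. The median of all genes was 0.72, which the number of genes per well goes with. With no filter on low values, 1835 of 17070 genes (10.7%) were higher, 405 (2.37%) were lower and the median was 0.10. Among the 6 wells of like gene number, 1791 genes were measured, 321 (17.9%) were higher and 305 (17%) lower, and the median was 0.03.

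Genes of protein folding in the ER had the highest median of the lists with at least 4 measured genes. The 12 members counted of a list of 15 were each higher by at least 1, beside 35% of all genes, and their median difference was 2.36. Hyou1 and Atf4 were below the filter. Ddit3, a transcription factor of the unfolded protein response, was not counted because it has 2 entries under its symbol, and the entry that passed the filter differed by only 0.38. The median was 2.15 on plate 1, 3.24 on plate 2 and 2.77 on plate 3. Plate 2 had 2 wells of each class, and plate 3 had 1 well without. The Ccl12 wells of plate 2 included E1, the well highest for Canx and Calr described below. Per well, the Ccl12 wells held 0 to 11 of 14 matched members at 10 or more reads (median 7.5), and the wells without held 2, 3, 0, 2 and 1.

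Pdia3 (ENSMUSG00000027248, chromosome 2, 121413775 to 121438687, plus strand), a disulfide isomerase that folds glycoproteins and helps load MHC class I molecules, had the highest difference among the genes named. It ran from 4.05 to 4701 RPM in the Ccl12 wells with a median of 1424 RPM. The wells without held 91.8, 0, 0, 3.83 and 0 RPM. Of the 14 Ccl12 wells, 12 lay above all 5 others, and the 2 exceptions held 4.05 and 15 RPM. The difference was 5.38 with an SD between wells within the classes of 2.40, and 4.67, 3.46 and 6.75 within plates 1, 2 and 3. Among the 6 wells of like gene number it was 5.23.

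Canx (chromosome 11, 50293961 to 50325673, minus strand), the membrane-bound lectin calnexin that holds unfolded glycoproteins, ran from 1.2 to 19562 RPM with Ccl12 (median 401). The wells without held 0.768, 0, 0, 0 and 163 RPM, and 9 of 14 Ccl12 wells were above all of them. The difference was 4.49 (SD 2.59), but only 0.31 on plate 3, whose 1 well without Ccl12 held the 163 RPM. The level of 19562 RPM came from well E1 of plate 2, which held 97.1 RPM of Ccl12 and also the highest Calr and Syngr1.

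The classes overlapped for other chaperones as well. Calr, the soluble lectin calreticulin, ran from 0 to 8788 RPM with Ccl12 (median 248.7), and the wells without held 0.768, 1449, 0, 0 and 0 RPM (difference 3.01). Sdf2l1, a partner of the ER chaperones, had a median of 297 RPM with Ccl12 and at most 3.04 RPM without (3.66). Hspa5, the ER member of the HSP70 family also called BiP, differed by 2.14 with an SD of 3.69 and was lower in the Ccl12 wells of plate 2 (-3.91). Among wells of like gene number only 6 members were measured and 3 were higher by 1, beside 17.9% of all genes. Hspa5 was then at -0.13, Hsp90b1 at 0.02 and Pdia6 at 0.53.

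**Figure D3:**
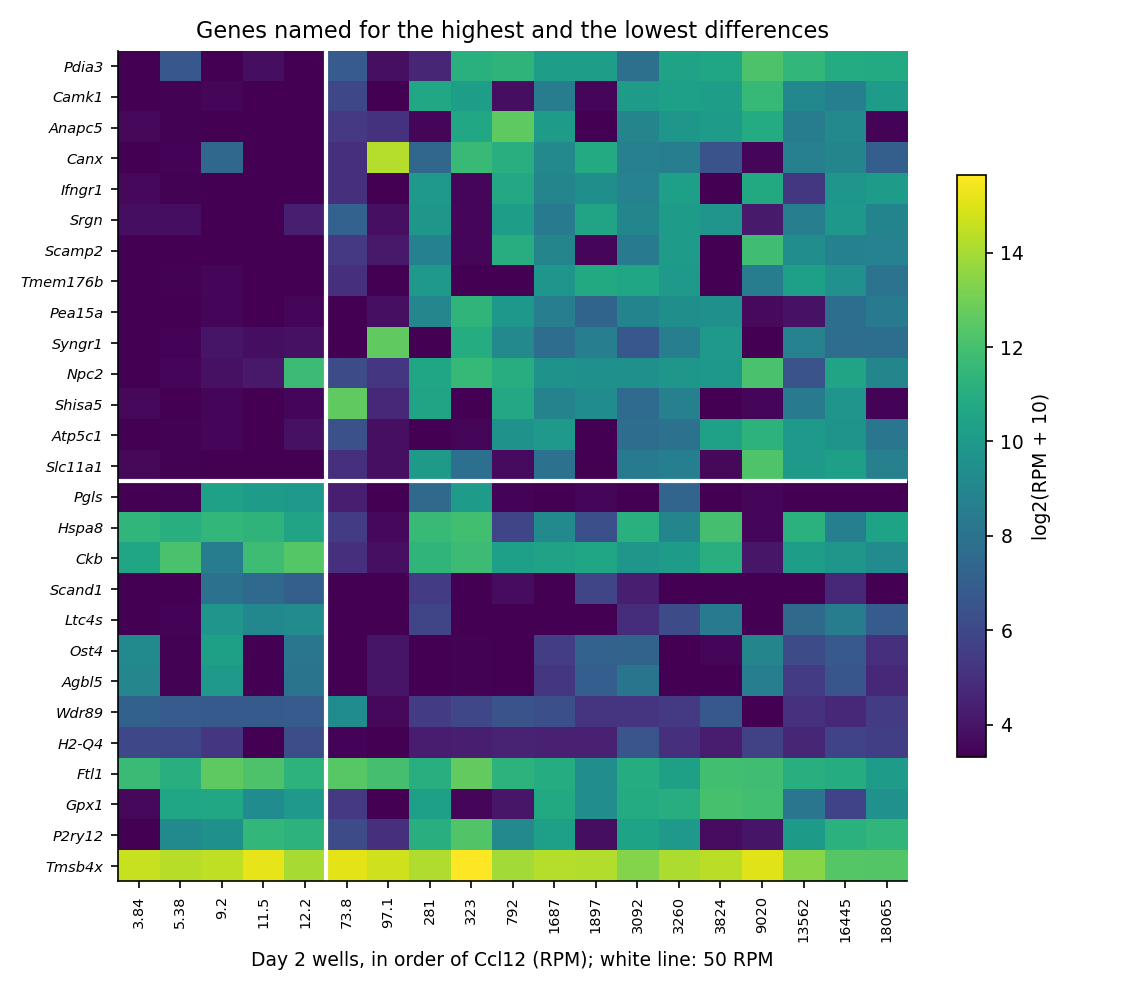
Level of 14 of the 15 genes with the highest and 13 of the 14 with the lowest differences by the rule for naming, as log2(RPM + 10), in the 19 day 2 wells in order of Ccl12; white lines separate the wells at 50 RPM and the 2 gene sets. Dark cells are genes at or near 0 RPM, and the wells at 73.8 and 97.1 RPM of Ccl12 are dark for most of the upper genes, as the wells without are.

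Upstream sequences of these genes were read for the ER stress response element, which factors of the unfolded protein response bind. The motif searched was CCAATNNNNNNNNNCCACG on both strands of the 250 bases before the RefSeq start (GRCm38.p6). It was found upstream of 5 of 13 ER genes in the table (38.5%: Hspa5, Hsp90b1, Calr, Canx and Pdia6) and of 35 of 27025 genes (0.13%). The sequences of Canx (chr11:50325674-50325923, minus strand) and Hspa5 (chr2:34771840-34772089, plus strand) are shown because they carry the motif, in capitals, and differ in how they stood at like gene number. Pdia3, with the highest difference, had no such match.
Canx: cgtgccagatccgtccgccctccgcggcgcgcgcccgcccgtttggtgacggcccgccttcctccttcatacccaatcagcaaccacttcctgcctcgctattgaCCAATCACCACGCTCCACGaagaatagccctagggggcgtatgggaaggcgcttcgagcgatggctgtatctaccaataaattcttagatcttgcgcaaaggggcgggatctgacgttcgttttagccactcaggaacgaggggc
Hspa5: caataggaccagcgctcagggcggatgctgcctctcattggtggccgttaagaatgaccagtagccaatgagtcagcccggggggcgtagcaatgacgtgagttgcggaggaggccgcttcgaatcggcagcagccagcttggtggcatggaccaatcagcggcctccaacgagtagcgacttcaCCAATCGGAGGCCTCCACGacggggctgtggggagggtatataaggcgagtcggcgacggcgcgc

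Interferon-stimulated genes also stood above the median of all genes, in all wells and at like gene number. Of 22 measured members of 25, 17 were higher by at least 1, beside 35% of all genes, 1 was lower (Oasl2, an oligoadenylate synthetase-like gene, -1.91), and the median was 1.72. On plate 2, with 2 wells of each class, the median was 0.23, against 2.69 on plate 1 and 1.75 on plate 3. Per well, 1 to 25 members reached 10 reads with Ccl12 (median 8), and 5, 0, 4, 1 and 1 without. Among wells of like gene number only 8 were measured, with a median of 2.22. Of these, 6 were higher and 1 lower, beside 17.9% and 17% of all genes.

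Bst2 (chromosome 8, 71534255 to 71537456, minus strand), the membrane protein tetherin that holds virus particles at the cell surface, had a median of 201 RPM in the Ccl12 wells with a range of 0 to 1110. The wells without held 0.384, 0, 0, 0 and 0 RPM. It reached 10 reads in 10 of 14 and 0 of 5 wells, where 0 of 5 leaves room for a sizeable true share. The difference was 3.41 (SD 2.02), and 12 Ccl12 wells were above all of the others. Bst2 was not measured at like gene number. It differed by 0.39 in uncrushed wells and by 0.94 at day 4, beside medians of all genes of 0.38 and 0.67.

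Ifitm3, which blocks the entry of viruses into cells, had a median of 639 RPM with Ccl12, and the wells without held 5.38, 2.4, 1082, 3.83 and 0 RPM. It differed by 3.97 (SD 2.27) and by 3.56 at like gene number. Within plates 1, 2 and 3 Ifitm3 differed by 5.61, 0.17 and 5.73. In uncrushed wells it differed by 0.64 and at day 4 by 3.44. Ifit3, which binds antiviral signalling proteins, was uneven: it reached 10 reads in 6 of 14 Ccl12 wells, with a range of 0 to 2489 RPM, and stood at most at 0.959 RPM in the wells without. The difference was 2.89 with an equal SD of 2.89. Within plates 1, 2 and 3 it was 4.36, 0.30 and 2.31. In uncrushed wells Ifit3 differed by 1.83 and at day 4 by 0.57. Isg15, a ubiquitin-like modifier, differed by 0.35, and the master regulator Irf7 by -0.61, each with 1 of the 5 wells without at 925 RPM and 1703 RPM.

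The interferon-stimulated response element, which interferon-activated factors bind, was searched as GAAANNGAAA on both strands of the same upstream windows. It was found upstream of 10 of 18 interferon genes in the table (55.6%) and of 936 of 27025 genes (3.46%). Other lists ran from 0%, such as NF-kB genes (0 of 15), to 25% for ribosomal protein genes (3 of 12). Chemokine and MHC class I genes each stood at 20% (2 of 10). Ifit3 (chr19:34583279-34583528, plus strand) and Bst2 (chr8:71537473-71537722, minus strand) each had 2 matches, which overlap in Bst2. Ccl12 (chr11:82101595-82101844, plus strand), the gene that divided the wells, held neither motif in this window. Capitals mark the matches.
Ifit3: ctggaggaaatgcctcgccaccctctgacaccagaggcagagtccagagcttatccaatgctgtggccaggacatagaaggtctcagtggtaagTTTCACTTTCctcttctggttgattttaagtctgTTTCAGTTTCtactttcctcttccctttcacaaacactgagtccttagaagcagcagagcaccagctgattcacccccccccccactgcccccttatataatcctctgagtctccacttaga
Bst2: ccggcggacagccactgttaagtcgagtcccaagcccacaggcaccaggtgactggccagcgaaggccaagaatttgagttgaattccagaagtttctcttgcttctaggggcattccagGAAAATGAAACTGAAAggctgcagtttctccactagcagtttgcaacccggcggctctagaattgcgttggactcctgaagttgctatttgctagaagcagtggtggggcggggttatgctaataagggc
Ccl12: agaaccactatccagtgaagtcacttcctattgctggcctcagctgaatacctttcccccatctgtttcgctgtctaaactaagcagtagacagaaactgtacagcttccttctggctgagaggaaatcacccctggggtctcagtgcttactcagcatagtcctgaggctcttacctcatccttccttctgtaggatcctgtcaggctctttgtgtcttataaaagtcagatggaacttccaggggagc

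Few other chemokines were found beside Ccl12. Of 16 in the list, 6 passed the filter, 4 of them higher by at least 1 (median 1.71), beside 35% of all genes. Ccl6, a chemokine of myeloid cells, ran from 0 to 10517 RPM with Ccl12 (median 388), and the wells without held 28.8, 1.52, 1.92, 7.65 and 0 RPM. Its difference was 3.92 (SD 2.83), 3.63 at like gene number, and 10 of 14 Ccl12 wells were above all others. Ccl9 and Cxcl16 differed by 2.25 and 2.22 and Ccl4 by 1.20 (-0.63 with the 6 neutrophil-like wells kept), each reaching 10 reads in 4 to 6 Ccl12 wells. Ccl3 (0.71) and Cxcl13 (0.87) differed by less than 1.

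Ccl2 and Ccl7, which lie close to Ccl12 on chromosome 11 and encode ligands of the same receptor, were named after their values were seen because they did not pass the filter. Ccl2 reached 10 reads in 2 of 14 Ccl12 wells, up to 709 RPM, and Ccl7 in 1, up to 1179 RPM. Both were at 0 RPM in all 5 wells without. So 12 of the 14 Ccl12 wells did not have Ccl2 at 10 reads.

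The 3 genes of the series title reached 10 reads in 3 to 6 of 14 Ccl12 wells and in 0 of 5 without. A count of 0 of 5 leaves room for a sizeable true share. Gpr84, a receptor for medium-chain fatty acids, reached 10 reads in 6 of 14 wells (0 to 823 RPM), Il1a, interleukin 1 alpha, in 6 (0 to 1770 RPM) and Tnf in 3 (0 to 618 RPM). Gpr84 and Tnf were at 0 RPM in all 5 wells without, and Il1a was at 1.53 RPM or less. Gpr84 differed by 2.04 and Tnf by 1.16, and Il1a had means of 6.11 and 3.40 on the log2 scale.

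Immediate early genes, transcription factors and phosphatases induced within minutes of a stimulus, were uneven between wells. Of 16 measured members of 20, 13 were higher by at least 1, beside 35% of all genes (median 1.89). Per well, 0 to 17 reached 10 reads with Ccl12 (median 4), and 2, 0, 0, 6 and 0 without. Jun was at 2534 RPM or more in 4 Ccl12 wells and at most 42.2 RPM in the other 10, against at most 3.04 RPM in the wells without. With the 6 neutrophil-like wells kept among the wells without Ccl12, the list's median turned to -0.072. On plate 2 it was -0.06, and at like gene number only Fos (-0.04) and Egr1 (-1.21) were measured.

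Signalling genes of innate immunity were nearer to the median of all genes. The NF-kB list had 6 of 13 measured members higher by 1, beside 35% of all genes (median 0.88), with the feedback gene Zfp36, which destabilises cytokine mRNAs, at 3.39 (-0.56 with the 6 neutrophil-like wells kept). The innate receptor list had 5 of 11 higher and 1 lower, beside 35% and 4.42% (median 0.96), with Cd14, a co-receptor for bacterial lipopolysaccharide, at 3.16. Cd14 ran from 0 to 26424 RPM with Ccl12 and stood at 3.07 RPM or less without. Within plates 1, 2 and 3 it differed by 3.13, 0.28 and 4.02. In uncrushed wells Cd14 differed by 1.51 and at day 4 by -2.32.

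**Figure D4:**
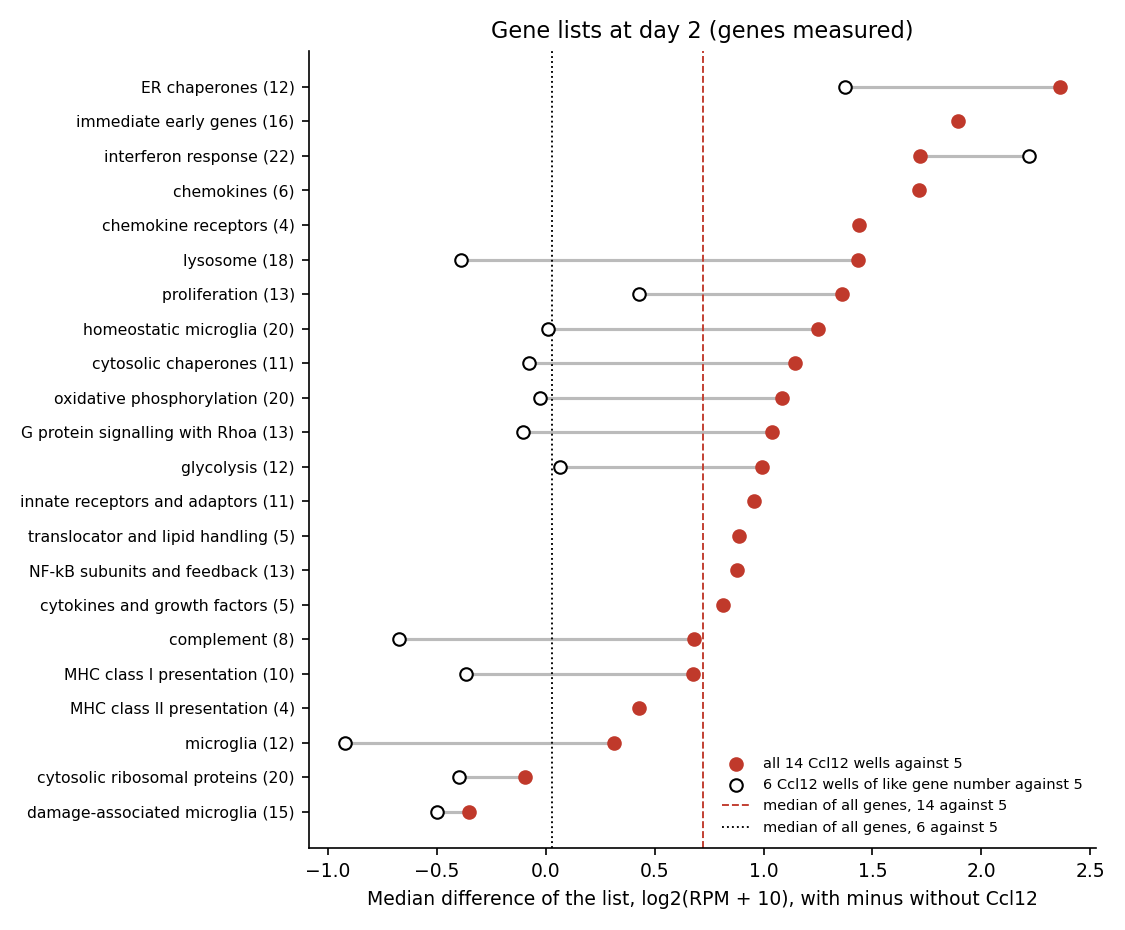
Median difference of each list with at least 4 measured genes (numbers in brackets), in log2(RPM + 10), for all 14 Ccl12 wells against 5 (filled) and for the 6 of like gene number (open, where at least 4 genes were measured); vertical lines are the medians of all genes. ER chaperones and the interferon response stay to the right of both lines, while the open points of lysosome and homeostatic genes lie at or left of 0.03.

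Genes of microglial identity differed in both directions. Of 20 homeostatic genes, 12 were higher by at least 1 and 1 lower, beside 35% and 4.42% of all genes (median 1.25). At like gene number 4 of 15 were higher and 7 lower, beside 17.9% and 17% (median 0.01). Cx3cr1 differed by 3.00 and Tmem119 by 3.24, with the wells without at 1761, 0, 1.92, 3.83 and 1.53 RPM of Tmem119. P2ry12 was at 586, 2478, 0, 2825 and 721 RPM in the wells without and at a median of 1017 RPM with Ccl12, a difference of -0.50. The damage-associated list had 7 of 15 higher and 1 lower, beside the same 35% and 4.42%, and a median of -0.35, below the 0.72 of all genes.

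Lysosomal genes split. Of 18, 9 were higher and 1 lower by 1, beside 35% and 4.42% of all genes (median 1.43). At like gene number 6 of 17 were higher and 7 lower, beside 17.9% and 17% (median -0.39). The cholesterol carrier Npc2 (4.03), Cd68 (4.10) and Grn (3.92) were higher, but each was at 3436 RPM or more in 1 of the 5 wells without. The protease Ctsb was lower (-2.04), at a median of 3207 RPM with Ccl12 and 5486 RPM without. Ribosomal protein genes showed 4 of 20 higher and 5 lower, beside 35% and 4.42% (median -0.10). Rpl23 was at -1.69, but at 1.66 with the 6 neutrophil-like wells kept.

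Replication genes were found in part of the Ccl12 wells. Of 13 measured members of the proliferation list, 8 were higher by at least 1, beside 35% of all genes (median 1.36). At like gene number 3 of 6 were higher and 2 lower (median 0.43), beside 17.9% and 17%. Per well 0 to 13 members reached 10 reads with Ccl12 (median 5.5), and 7, 0, 0, 3 and 0 without. Mcm3, a subunit of the replicative helicase, differed by 3.36 and reached 10 reads in 7 of 14 and 0 of 5 wells.

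Among the other genes named for high differences were Camk1 (4.91), a calcium-dependent kinase, Anapc5 (4.58), a subunit of the anaphase-promoting complex, and Ifngr1 (4.42), a chain of the interferon gamma receptor. Ifngr1 ran from 0 to 1760 RPM with Ccl12 (median 588), and the wells without held 0.384, 0, 1.92, 0 and 0 RPM. Srgn, the proteoglycan serglycin of secretory granules, differed by 4.41, with a median of 481 RPM against at most 10.6 RPM, but by -0.91 with the 6 neutrophil-like wells kept. Each of these was above all wells without in 11 or 12 of 14 Ccl12 wells. On plate 2 Camk1 differed by only 0.08 and Anapc5 by 0.78, against 2.95 for Ifngr1 and 3.60 for Srgn. In uncrushed wells the differences of Camk1, Anapc5, Ifngr1 and Srgn were -0.02, 1.13, 1.47 and 2.12. At day 4 they were 0.90, 3.31, 2.16 and -2.28.

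Genes lower in the Ccl12 wells were fewer than those higher over all wells (231 against 1829), but nearly as many at like gene number (305 against 321). Relative to the median of all genes, 964 were lower and 620 higher. Only 14 genes met the rule for naming in this direction, 8 of them lower by at least 1. Hspa8, the constitutive cytosolic HSP70 chaperone, was at 2081, 1446, 2704, 2598 and 2818 RPM in the wells without. In the Ccl12 wells it ran from 1.8 to 4129 RPM (median 534), so the groups overlapped, and 3 wells exceeded all 5. It differed by -2.58 (SD 2.68), by -4.08 at like gene number, and by 0.14 with the 6 neutrophil-like wells kept. Ckb (0.60) also turned in that setting. Ckb, the brain creatine kinase, differed by -1.97 and Pgls, an enzyme of the pentose phosphate pathway, by -2.93. Ost4 (-1.81) and Agbl5 (-1.76) overlap on chromosome 5, where Ost4 starts at 30905885 and Agbl5 ends at 30906965, so reads of one may be counted for the other.

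The same division was then read in wells that had not been used. In uncrushed retina, 9 wells with Ccl12 against 29 without, 1278 of 5388 genes (23.7%) were higher by at least 1 and 42 (0.78%) lower. At day 4, with 19 against 3 wells, 2331 of 7448 (31.3%) were higher and 535 (7.18%) lower. Genes per well differed there too: after thinning, the medians were 2309 with Ccl12 and 1130 without in uncrushed retina and 2644 and 1651 at day 4. Of the 3 day 4 wells without Ccl12, well F1 of plate 1 held 61290 RPM of monocyte markers, 4666 RPM of macrophage markers and 4274 RPM of microglial markers, against 37762 and 31970 RPM of microglial markers in the other two. Well A6 of plate 2, of the 29 uncrushed wells without, held 8173 RPM of monocyte markers. The values without these wells or without plate 1 were added after the data were seen. Without F1, 2677 of 7287 genes (36.7%) were higher and 533 (7.31%) lower at day 4. Without plate 1, which leaves 11 wells against 1, 3349 of 4984 (67.2%) were higher and 275 (5.52%) lower.

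The genes past 1 at day 2 were followed in these wells. Of the 1829 higher, 1450 were measured in uncrushed wells and 598 (41.2%) were higher by 1, beside 1069 of 3881 (27.5%) of all genes of day 2. At day 4 it was 918 of 1741 (52.7%) beside 1899 of 4675 (40.6%). Of the 231 lower at day 2, 179 were measured in uncrushed wells, where 4 were lower (2.23%) and 50 higher (27.9%). Of all genes of day 2, 42 of 3881 (1.08%) were lower there and 27.5% higher. At day 4, 208 of the 231 were measured, and 17 were lower (8.17%) and 92 higher (44.2%). Of all genes of day 2, 289 of 4675 (6.18%) were lower at day 4 and 40.6% higher. Without F1 the higher genes gave 1025 of 1738 (59%) at day 4 beside 2165 of 4641 (46.6%). The lower genes gave 14 of 207 (6.76%) lower beside 379 of 4641 (8.17%). Without plate 1 the higher genes gave 1224 of 1515 (80.8%) beside 2744 of 3806 (72.1%). Hspa8 was 1.45 higher in uncrushed Ccl12 wells and 1.52 higher at day 4 (5.99 without plate 1).

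The ER chaperones had a median of 1.49 in uncrushed wells, with 9 of 13 higher by 1 beside 23.7% of all genes, and of 2.36 at day 4, with 11 of 13 higher and 1 lower beside 31.3%. Pdia3 differed by 2.55 and 3.08 in these groups, and Canx by only 0.81 and 0.25. The interferon list had medians of 1.48 (15 of 22 higher) and 1.20 (13 of 21 higher, 1 lower). Immediate early genes stood at 1.93 (13 of 15 higher) in uncrushed wells and at 0.48 (7 of 18) at day 4, below the 0.67 of all genes. Ccl6 differed by -0.50 in uncrushed wells and by 2.05 at day 4, while Ccl3 differed by 2.58 and 4.38. At day 4 without F1, the ER median was 3.27, the interferon median 1.20 and the immediate early median 1.78, beside 0.77 for all genes. Of the immediate early genes 11 of 16 were higher, beside 36.7% of all genes. Pdia3 was then at 5.46, Canx at 1.32 and Ccl6 at 4.50. Without plate 1 these medians were 3.82, 2.03 and 2.02, beside 1.30 for all genes. Leaving A6 out of the uncrushed wells gave medians of 1.63, 1.48 and 2.16.

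**Figure D5:**
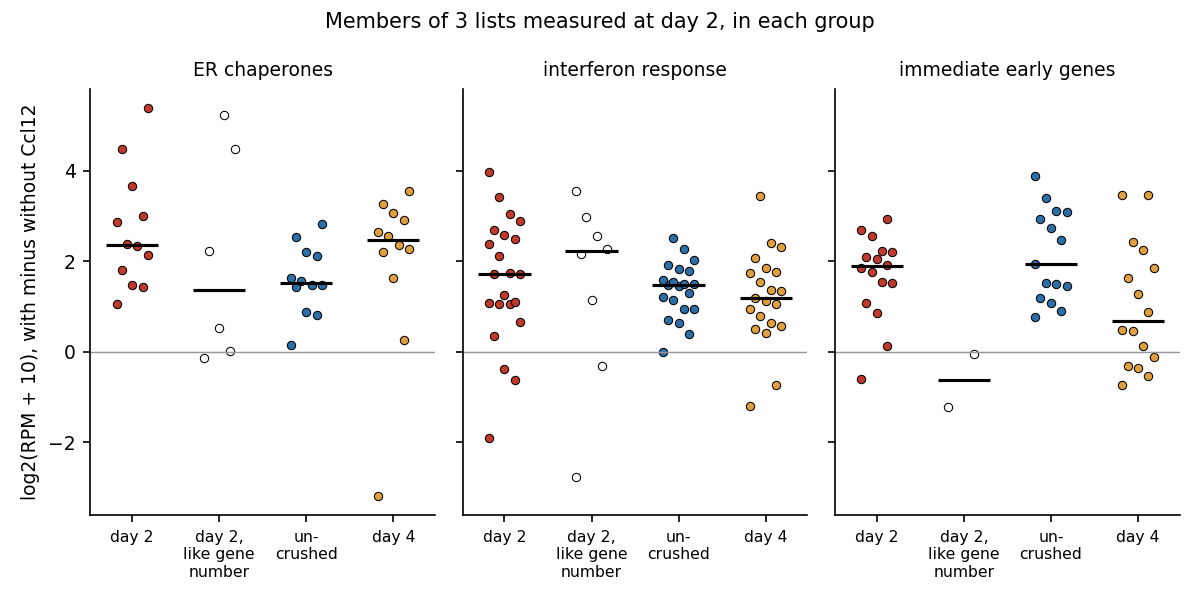
Difference between wells with and without Ccl12, in log2(RPM + 10), for each list member measured at day 2, in all day 2 wells, those of like gene number, uncrushed retina and day 4; points are genes and bars their medians. ER chaperones and interferon genes lie mostly above 0 in each column, whereas at like gene number the list of immediate early genes is down to 2 points below 0.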

How the data were processed

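The submitters' processing notes name Trim Galore 0.4.4, Trimmomatic 0.36, cutadapt 1.16, STAR 2.7.2b and featureCounts 1.6.1 with GRCm38.p6 (mm10); strandedness is not given in the sources used here. Per the labels' protocols, cDNA of each sorted cell was amplified and made into Nextera XT libraries, without molecular identifiers. The authors deposited FPKM for 55364 genes in 144 wells.

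The product of FPKM and the deposited gene length (in kilobases), used as RPM, added up to 1000000 per well. The most frequent RPM above 0 in a well was taken as 1 read. Of values below 100 reads in the kept wells, 34.1% were whole within 0.01, so no count test was used. No label names an animal, so there is no test and no p-value. The SD given is the spread of log2(RPM + 10) between wells within the classes. Doublets were not called.

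The wells, the 22 pathway and 17 marker lists and the rules were chosen with earlier results of these data known. Named genes were all measured chemokines, Gpr84, Tnf, Il1a, the largest differences of each list described, and the 15 highest and 15 lowest. The latter needed 50 RPM in at least 50% of the wells of 1 class and the same sign on each plate, and left out ribosomal protein genes and unnamed models. Only 14 genes were below 0 on that rule, and the next, Eef1b2, stood at 0.12. Ccl2 and Ccl7 were named outside these rules. So were other list members, among them Hspa5, Hsp90b1, Pdia6, Oasl2, Isg15, Irf7, Fos, Egr1, Ctsb and Mcm3. Aldoa and Ddit3 have 2 rows each and H2afz none, so they were not matched. A few genes that met these rules are not reported here. Promoters were taken from RefSeq. The contrast was tested on simulated data. Alternatives covered pseudocount, filter, unit, thresholds, plates, depth and single wells. The software was numpy 2.4.6, scipy 1.17.1, pandas 2.3.3 and matplotlib 3.10.9 under Python 3.11.15.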

Additional observations from a re-analysis of the deposited data

Results flagged for a closer look

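Of 77 sets of 5 values from the wells without Ccl12, 34 had 1 well far from the other 4, by Dixon's criterion at 95%. Chance would mark about 1 set in 20 only if the values were normally distributed, which sets with many zeros are not. A set of 4 zeros and 1 positive value is always marked. Many of these sets hold zeros and a single read, so the gap is often that of 1 or 2 reads. Values are in RPM.

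Well D3 of plate 1 was marked in 11 sets. It had 2602970 recovered reads, the most of the 5. It was high for Tmem119 (1761), Gpr34 (3527), Cst7 (1416), Mif (1243) and Pdia3 (91.8). It was also high, at low levels, for Nfkbiz (1.54), Ccl9 (0.384), Cmklr1 (0.384), Bst2 (0.384) and Phf11b (0.192).

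Well E4 of plate 1 was marked in 8 sets. It was high for the lysosomal genes Grn (5969) and Npc2 (3436) and for Calr (1449). At low levels it was high for Il16 (4.56), Cxcl13 (3.04), Klf2 (3.04), Sdf2l1 (3.04) and Myd88 (1.52).

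Well E2 of plate 2 was marked in 11 sets. It was high for P2ry13 (5384), Cd63 (2990), the immunoproteasome gene Psmb8 (1613), Ifitm3 (1082) and Wdr89 (134). It was low for Gpx1 (1.92) and P2ry12, which was at 0. At low levels it was high for Anapc5 (1.92), Ifngr1 (1.92), Slc11a1 (1.92) and Ifit3 (0.959).

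Well E5 of plate 2 was high for Cd68 (4868). Well E4 of plate 3 was high for Rpl23 (2095), Canx (163) and Tmem176b (1.53).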

How the results depend on the processing

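The class without Ccl12 holds 5 wells, so 1 well moves each of its means. Leaving out each of them in turn gave 1837 to 1964 genes higher by 1 or more, against 1829, and 308 to 386 lower, against 231. The lower count rose past 1.5 times without well E4 of plate 1 (386) and without wells E2 (359) or E5 (358) of plate 2.

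Genes higher numbered 3258 with 1 RPM added in place of 10, 2864 on log2(FPKM + 1) and 1195 without plate 1. Genes lower numbered 405 with no filter, 585 with Ccl12 divided at 10 RPM, 104 at 200 RPM, 450 without plate 1 and 421 without plate 2. With 1 RPM added, the medians of the interferon and ER chaperone lists were 3.10 and 3.87. Of the alternatives chosen after seeing the data, the 6 wells of like gene number gave 321 genes higher. Centring on the median of all genes, 0.72, gave 620 higher (11.9%) and 964 lower (18.4%), against 35% and 4.42%.

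Keeping the 6 wells high in S100a8 and S100a9 among the wells without Ccl12 reversed 16 values, so these hold only with those wells left out. The immediate early median was -0.072, Srgn -0.91, Ccl4 -0.63, Ccr1 -3.04, Myd88 -0.65, Zfp36 -0.56, Nfkbiz -0.95, Dusp1 -1.68, Btg2 -1.29 and Klf2 -0.078. Hspa8 was 0.14, Ckb 0.60, Wdr89 0.036, Rpl23 1.66, Rpl13 0.72 and Rpl32 0.99. Divided at 10 RPM, Ltc4s was 0.093 and Rplp0 -0.40, and at 200 RPM Ckb was 0.73 and Rpl32 0.28. At like gene number the immediate early median was -0.63, the lysosomal median -0.39 and Psmb8 -0.37. The cause of these shifts was not tested.

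Among the genes named by rule and the 13 lists recomputed, no other value of at least 1 in size changed sign under the alternatives run. Genes named outside the rules were not part of this count, and Hspa5 turned at like gene number. Values under 1 changed sign in 44 cases, over 12 results. At like gene number these included the medians of MHC class I (-0.37) and innate receptor genes (-1.12, on 1 gene), Ftl1 (0.25), Tmsb4x (0.28) and Eef1b2 (-0.22). Of the lists not recomputed elsewhere, complement (-0.67), cytosolic chaperones (-0.08), oxidative phosphorylation (-0.02) and G protein signalling (-0.10) turned there too. At day 4, leaving out plate 1 lowered the genes lower in Ccl12 wells to 275 from 535, with 1 well without Ccl12 remaining. Scaling to nuclear genes was not run, since no mitochondrial gene was used here. No paired analysis was possible because the result comes from no test. Wells under 50000 reads were not compared, since 1 read there is worth more than 50 RPM.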
